A study of Homo sapiens with 96 samples.

Results

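The libraries described here came from asynchronous hTERT-RPE1 cells after knockdown of the long non-coding RNA MIAT. RPE1 is a long-used human cell line derived from the pigmented layer of the retina, and telomerase keeps it dividing. The libraries were chosen by their labels: 3 libraries labelled as MIAT knockdown and 2 labelled as control, 5 of the 96 samples of the series. Every one of the 5 was transfected with 130 to 150 pmol of LNA GapmeRs per the labels' protocols, and none was treated with mimosine, the drug used elsewhere in the series to hold cells before S phase. The labels describe the RNA as nascent and also name strand-specific RNA-seq, so whether levels are of new or of total RNA is not settled. They do not say which GapmeR the controls received or how many different GapmeRs were aimed at MIAT. The series is about non-coding RNAs of S phase, and this comparison asks which RNAs differ when MIAT is lowered in cells that cycle freely. MIAT knockdown in synchronised cells (8 knockdown and 8 control libraries, from cells held with 400 uM mimosine for 22 h and labelled S0, S2, S4 and S6) and asynchronous knockdowns of LINC00704 and LUCAT1 (3 libraries each, against the same 2 controls) serve only to set the values beside.

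MIAT is a spliced, nuclear long non-coding RNA that was first described in a study of myocardial infarction and has been reported to bind splicing factors. A GapmeR is an antisense oligonucleotide with a DNA centre, which pairs with an RNA so that RNase H cuts it. In a cycling cell, E2F factors switch on the genes of DNA replication at the passage from G1 to S, the replication-dependent histone genes are read in S phase, and a later wave of genes serves mitosis, so a population of asynchronous cells shows all 3 programmes mixed. Because RNA was taken from bulk cells, fewer cells in a phase and less RNA per cell cannot be told apart.

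The libraries held 27.3 to 50.5 M reads, recovered from the deposited values. Levels are RPKM, which divides reads by gene length and a library size. The size behind the deposited values was not the recovered read total. It was 40.0 and 25.2 M in controls, under their totals of 42.1 and 27.3 M. After knockdown it was 49.2, 39.4 and 53.6 M, above totals of 47.2, 37.5 and 50.5 M. Knockdown values therefore stand lower against controls than read totals would give. The length behind the levels spans introns, so that a spliced gene with long introns shows a lower value than its mRNA length would give. Nothing in the labels says that replicates were separate cultures, so a p-value here covers only library-to-library spread, part or all of which may be technical. The controls and the knockdown libraries stood apart on the first principal component, which held 82.8% of the variance over 9200 genes. Of 15 pigment epithelium markers 10 were in the table and 4 passed the filter on weak genes: OTX2, a transcription factor of that lineage, had means of 2.36 RPKM in controls and 2.14 after knockdown, MITF had 0.53 and 0.60, and the pigment genes TYR, TYRP1 and PMEL stayed at or under 0.231 RPKM in every library. The keratin genes KRT8 and KRT18 fell by 0.71 and 0.60 on the log2 scale. Of 20 markers of other cell types 3 were in the table, and PECAM1, VWF and RBFOX3 stayed at or under 0.031 RPKM in every library.

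MIAT itself was lower in each of the knockdown libraries. It stood at 0.379 and 0.345 RPKM in the controls (288 and 165 reads) and at 0.152, 0.056 and 0.077 RPKM after knockdown (142, 42 and 78 reads). The groups did not overlap, and knockdown replicate 1 kept the most. The mean was 0.362 ± 0.024 RPKM in controls (SD, n = 2) and 0.095 ± 0.050 after knockdown (SD, n = 3), a 3.81-fold difference. MIAT lies under the level of 0.5 RPKM that a gene needed in at least 2 libraries to be tested, so its test comes from the fit without that filter: the log2 difference was -0.84 (limma on log2(RPKM + 0.25), adjusted p = 0.0054). That scale understates the change of a gene this weak. An exact two-sided permutation test over the 5 libraries gave p = 0.1, the smallest it allows for 3 against 2. In synchronised cells MIAT ran from 0.243 to 0.323 RPKM in the 8 controls and from 0.072 to 0.221 in the 8 knockdown libraries, again without overlap. In the tables that share the asynchronous controls it stood at 0.260, 0.417 and 0.184 RPKM in the LINC00704 knockdown libraries, with a control mean of 0.362, and at 0.258, 0.094 and 0.147 in the LUCAT1 knockdown libraries, with a control mean of 0.375.

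**Figure D1:**
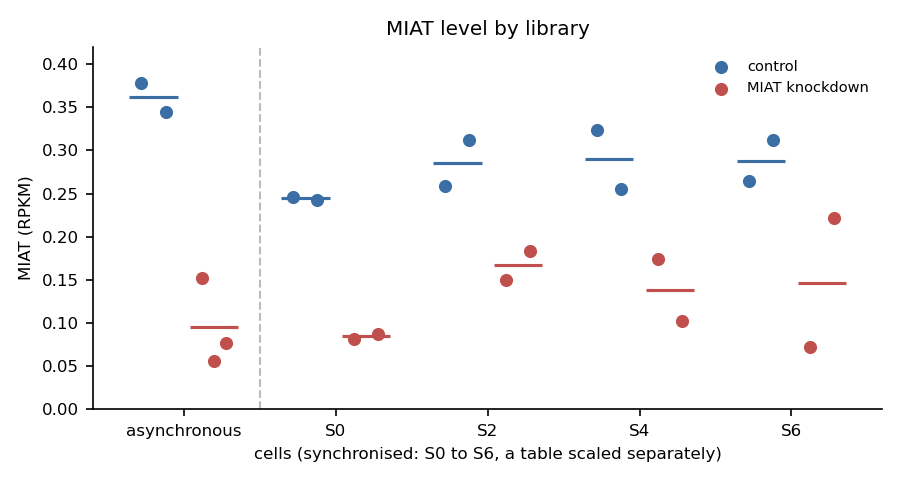
MIAT level (vertical axis, RPKM) in each library of asynchronous cells and of synchronised cells at S0 to S6; points are libraries (blue control, red MIAT knockdown) and bars are group means, and the synchronised table was scaled separately. No knockdown library reaches a control library of its own table, and the asynchronous groups have means of 0.362 and 0.095 RPKM.

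MIAT lies on chromosome 22 of GRCh38.p14, on the forward strand, from 26646429 to 26676478 in RefSeq, and its span overlaps that of MIATNB, a neighbouring non-coding RNA that starts at 26672843. MIATNB did not follow MIAT: it stood at 0.347 and 0.306 RPKM in controls and at 0.307, 0.337 and 0.325 after knockdown, a log2 difference of -0.01 (limma without the filter, adjusted p = 0.92). The nearest coding gene below MIAT, TPST2, a tyrosylprotein sulfotransferase 56.3 kb away, fell by 0.53 ± 0.09 (log2, SE; adjusted p = 0.0041), from 1.71 and 1.54 RPKM to 1.04, 1.10 and 0.99. TFIP11, a splicing-related gene 134 kb away, fell by 0.34 ± 0.09 (limma adjusted p = 0.022, and 0.149 without control replicate 1 and 0.086 without control replicate 2). CRYBB3, a lens crystallin gene 1439 kb away, had a log2 difference of 0.75, but it stood at 0.29 RPKM in both controls and was tested only because it was higher after knockdown. The table held 18 genes of this neighbourhood, of which 11 were tested. The other 8 of these, SRRD and HPS4 included, did not pass.

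Over all genes the change was wide. Of 9200 genes tested, 4016 were called (43.7%), of which 1155 rose and 2861 fell (12.6% and 31.1% of those tested; limma with Benjamini-Hochberg adjustment, adjusted p under 0.05). The 2 groups did not overlap for 67.7% of the genes tested. Most differences were small: 305 genes rose and 88 fell by more than 1 on the log2 scale, and the median of all genes lay at -0.12. Abundant genes fell more often than weak ones, with 52.6% called lower among 831 genes of 10 to 100 RPKM and 17.8% among 2384 genes of 0.5 to 1 RPKM. Of the 594 tested genes with a control mean under 0.5 RPKM, 431 rose and none fell, but genes so weak in controls passed the filter mostly through the knockdown libraries, so that count supports nothing. Over the 8295 genes with both group means at or above 0.5 RPKM, 8.73% rose and 32.2% fell. The split depends on scaling: 1506 rose and 2347 fell with median scaling (median of all genes -0.04) and 1471 and 1800 with quantile normalization (-0.03). With limma-voom on recovered reads 2213 rose and 1945 fell (median of all genes 0.02). That fit takes the read totals as library sizes, unlike the deposited RPKM, and also changes the model and its weights. The share of each in the shift was not tested. Without the filter, where more genes were tested, 2604 rose and 3178 fell. The controls also weigh on it, since 524 rose and 1047 fell without control replicate 1 and 825 and 1654 without control replicate 2. Medians of gene groups are therefore also given relative to all genes, and counts of group members are to be read against 12.6% higher and 31.1% lower among all genes. These shares themselves vary with level and gene length. Called lower were 44.6% of genes of 3 to 10 RPKM and 49.4% of those of at least 100 RPKM. By gene length they were 39.2% from 3000 to 10000 bp and 5.66% from 3e+05 bp upward. Shares matched to the level or length of a group's members were not computed.

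**Figure D2:**
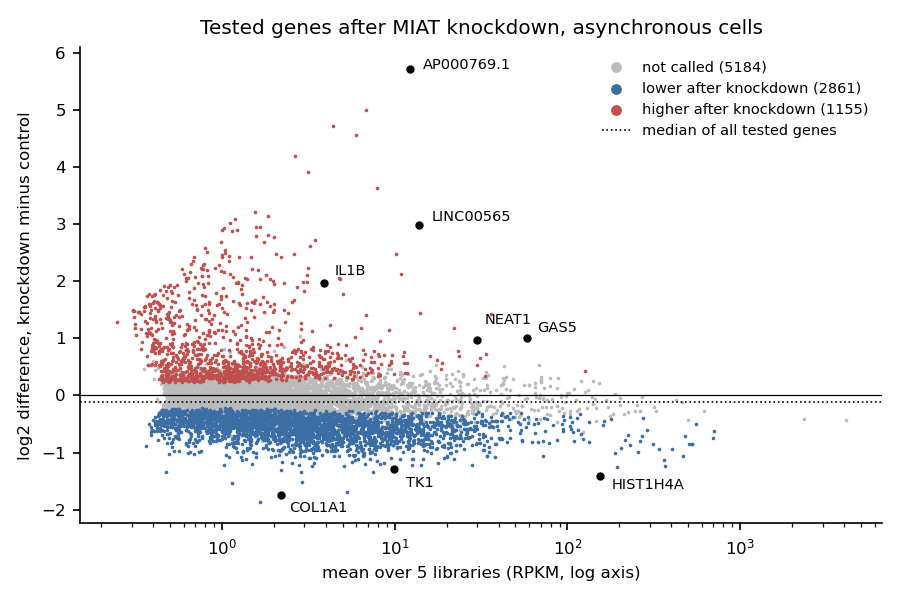
Mean level over the 5 libraries (horizontal axis, RPKM, log scale) and log2 difference of knockdown minus control (vertical axis) of the 9200 genes tested, with called genes in colour and 8 named genes in black. The 1155 genes called higher reach the largest differences and are mostly weak, and the 2861 called lower extend over the whole range of levels.

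Genes of the G1 to S transition and of DNA replication moved down as a group. Of 47 tested members 28 fell (59.6%, against 31.1% of all genes) and none rose, with a median of -0.50 (-0.38 relative to all genes). TK1, thymidine kinase of the S-phase nucleotide supply, stood at 15.7 and 15.02 RPKM in controls and at 5.14, 6.87 and 6.62 after knockdown, and fell by 1.28 ± 0.14 (SE on the log2 scale, 3 against 2 libraries, limma adjusted p = 0.0012). All 3 knockdown libraries lay far under both controls. MCM2, a subunit of the replicative helicase, had 16.5 and 15.5 RPKM in controls and 5.84, 8.19 and 7.85 after knockdown. E2F1, the transcription factor of this programme, had 8.49 and 8.25 against 3.50, 4.098 and 4.19 RPKM. Both fell, by 1.12 ± 0.16 and 1.05 ± 0.11, as did POLD1, the catalytic subunit of DNA polymerase delta, by 1.06 ± 0.12. Outside the rule for named genes, and picked after their values were seen, the other tested helicase subunits fell as well: MCM7 by 0.85, MCM3 by 0.74, MCM4 by 0.65, MCM6 by 0.61 and MCM5 by 0.61. SLBP, which binds histone mRNA, fell by 0.35. Of the 28, 17 still fell without control replicate 1, 17 without control replicate 2 and 18 with quantile normalization.

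Of the 28 fallen replication genes 24 had a promoter in the RefSeq table (GRCh38.p14). The 250 bases before the start site held an E2F-type motif, TTTGGCGC or TTTCCCGC on either strand, in 11 of these 24 (45.8%), in 15 of the 40 tested members with a promoter (37.5%), in 3.31% of the 6882 tested genes with a promoter and in 1.96% of all 27305 promoters. The stretches around the motif are printed for the 4 fallen members with the largest falls among those that hold it, 5′ to 3′ on the gene's strand with the motif in capitals.
E2F1, chr20:33686386-33686435, reverse strand: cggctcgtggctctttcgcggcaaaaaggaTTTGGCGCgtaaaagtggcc
UHRF1, chr19:4909457-4909500, forward strand: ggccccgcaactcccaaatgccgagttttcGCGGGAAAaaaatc
LIG1, chr19:48170421-48170488, reverse strand: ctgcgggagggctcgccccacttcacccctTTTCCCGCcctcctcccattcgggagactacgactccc
CDT1, chr16:88803724-88803788, forward strand: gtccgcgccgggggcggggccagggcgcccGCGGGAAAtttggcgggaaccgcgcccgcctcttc
These 4 genes fell by 1.05, 1.05, 0.92 and 0.90 on the log2 scale. UHRF1 keeps DNA methylation through replication, LIG1 joins Okazaki fragments and CDT1 loads the helicase at origins. A match is a description of the letters and not evidence that a factor was bound. Called and uncalled genes also differed in base composition: the median GC content of the 250 bases was 67.2% for 2216 fallen genes, 62.4% for 714 risen genes and 64.8% for 3952 genes not called, and its part in the calls was not tested.

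Replication-dependent histone genes, whose mRNAs end in a stem-loop and serve the packing of new DNA, had the lowest median of the 23 lists with tested members. With quantile normalization they did not, since their median was -0.25, beside -0.31 for sterol genes and -0.29 for replication genes. Of 47 tested members 33 fell (70.2%) and 1 rose, with a median of -0.76 (-0.64 relative to all genes). HIST1H4A, a histone H4 gene, stood at 219 and 273 RPKM in controls and at 83.0, 88.8 and 104 after knockdown, and fell by 1.42 ± 0.15 (limma adjusted p = 0.0010). HIST2H3D, a histone H3 gene, had 551 and 576 RPKM against 213, 233 and 271, and the linker histone gene HIST1H1D had 42.5 and 42.9 against 15.95, 19.3 and 19.8. In each of the 3 the groups lay far apart. HIST2H2AB, outside the list, fell by 1.26 ± 0.15. The most abundant members fell by less: HIST1H4C by 0.86, HIST1H4E by 0.85, HIST1H3B by 0.75, HIST1H1C by 0.62 and HIST2H2AC by 0.50. With quantile normalization HIST1H3B was no longer called (-0.17, adjusted p = 0.240, and 0.053 without control replicate 2), and HIST1H1C and HIST2H2AC changed sign (0.04 and 0.11, neither called). HIST2H2AC also lost its call under each of 7 other settings, median scaling, limma-voom and leaving out either control among them. HIST1H4I was the exception that rose, by 0.72. With quantile normalization 15 of the list fell and 2 rose, and without control replicate 1 or 2 the falls numbered 24 and 25. Histone genes have near-identical copies, so the value of a single one is uncertain.

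Of the 33 fallen histone genes 29 had a promoter in the RefSeq table under a current name. The promoters of this family usually carry a CCAAT box and a TATA box. TATAAA was found on either strand in 21 of the 29 and CCAAT in 21 of the 29 (72.4% each). Over all 39 tested members with a promoter the shares were 71.8% and 79.5%, so the fallen members did not stand out in their list. They were 5.20% and 36.1% over tested genes and 11.1% and 33.0% over all promoters. The 3 members with the largest falls among those with both are shown, with the motifs in capitals.
HIST2H3D (H3C13), chr1:149813694-149813814, reverse strand: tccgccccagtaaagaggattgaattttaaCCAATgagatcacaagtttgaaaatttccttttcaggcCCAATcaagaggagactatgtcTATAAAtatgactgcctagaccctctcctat
HIST1H1D (H1-3), chr6:26234988-26235072, reverse strand: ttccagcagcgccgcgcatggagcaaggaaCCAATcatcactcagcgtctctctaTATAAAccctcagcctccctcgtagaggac
HIST1H3H (H3C10), chr6:27809925-27810050, forward strand: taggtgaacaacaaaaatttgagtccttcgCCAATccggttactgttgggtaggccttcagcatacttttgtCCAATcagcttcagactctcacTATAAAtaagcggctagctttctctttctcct
In these stretches the TATA box begins 31, 30 and 32 bases before the start site. None of the 39 tested histone promoters held the E2F-type motif, which says only that these letters are not in that window.

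Among genes of G2 and mitosis, 15 of 50 tested members fell, no larger a share than the 31.1% of all genes, and none rose, with a median of -0.36 (-0.24 relative to all genes). CCNF, cyclin F, had 3.12 and 2.97 RPKM in controls and 1.00, 1.54 and 1.49 after knockdown, and fell by 1.07 ± 0.16 (limma adjusted p = 0.0031). BIRC5, the survivin gene of the chromosomal passenger complex, had 29.0 and 31.7 against 11.7, 15.7 and 18.2 RPKM, and PLK1, a mitotic kinase, had 8.46 and 8.51 against 3.81, 4.91 and 4.42. They fell by 1.01 ± 0.19 and 0.92 ± 0.12. MYBL2, the transcription factor that acts with FOXM1 on this programme, fell by 0.96 ± 0.10. Most members of the list did not pass. Without control replicate 2 the falls numbered 9, and with quantile normalization 10.

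Most of the sterol and lipid synthesis genes fell. Of 24 tested members 16 fell (66.7%), with a median of -0.52 (-0.40 relative to all genes). SREBF1, a transcription factor of lipid synthesis, stood at 4.69 and 4.05 RPKM in controls and at 2.04, 1.74 and 1.45 after knockdown, and fell by 1.22 ± 0.14 (limma adjusted p = 0.0014). FASN, fatty acid synthase, had 33.8 and 31.2 against 18.7, 14.9 and 11.8 RPKM and fell by 1.11 ± 0.19, and the desaturase gene FADS2 fell by 0.98 ± 0.10. SC5D, a late enzyme of cholesterol synthesis, was the one member called higher, with a log2 difference of 0.64, but its control mean of 0.48 RPKM lay under the filter, so that its call supports nothing. The other transcription factor gene of the pathway, SREBF2, fell by 0.84 and was the only one of 12 fallen members with a promoter in the table whose 250 bases held the sterol response element TCACCCCAC on either strand, which 0.348% of all promoters hold. It is shown with the element in capitals.
SREBF2, chr22:41832942-41833010, forward strand: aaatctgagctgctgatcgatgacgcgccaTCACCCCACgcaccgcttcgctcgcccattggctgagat

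Extracellular matrix genes fell too. Of 24 tested members 15 fell (62.5%) and none rose, with a median of -0.45 (-0.33 relative to all genes). COL1A1, a chain of collagen I, had 4.55 and 3.36 RPKM in controls and 1.39, 0.83 and 0.83 after knockdown, and fell by 1.75 ± 0.21 (limma adjusted p = 0.0016). The basement membrane collagen gene COL4A1 had 5.64 and 4.87 against 2.48, 2.08 and 1.94 RPKM and fell by 1.19 ± 0.13, its head-to-head neighbour COL4A2 by 1.08 ± 0.12, and the crosslinking enzyme gene LOXL2 by 0.94 ± 0.11. Without control replicate 1 only 6 of the list fell, and with quantile normalization 8.

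Of 21 TGF-beta and BMP response genes 13 fell (61.9%) and 2 were called higher, with a median of -0.52 (-0.40 relative to all genes). TAGLN, an actin-binding protein of contractile cells, stood at 48.5 and 48.7 RPKM in controls and at 26.5, 25.3 and 26.2 after knockdown, and fell by 0.90 ± 0.10 (limma adjusted p = 0.0011). SMAD6, an inhibitor of BMP signalling, fell by 0.81 ± 0.09 and the tropomyosin gene TPM2 by 0.80 ± 0.13, while the BMP antagonist gene GREM1 rose by 0.46. NOG, another BMP antagonist gene, had a difference of 0.83, but it passed the filter only through the knockdown libraries (control mean 0.45 RPKM). Of 22 YAP and TEAD targets 8 fell (36.4%) and none rose, with AJUBA falling by 0.75 ± 0.14. Its relative median was -0.03, so the list as a whole lay with all genes. Without control replicate 1 the falls numbered 7 in the TGF-beta list and 1 in the YAP list, and without control replicate 2 the latter numbered 3. With quantile normalization 9 of the TGF-beta list fell and 2 were called higher, and 4 of the YAP list fell and 3 rose.

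The list of ATF4 and unfolded protein response genes as a whole was called about as often as all genes. Of 29 tested members 9 fell (31.0%, against 31.1% of all genes) and 4 rose (13.8%, against 12.6%), with 7 and 7 under quantile normalization and 8 and 10 with limma-voom. The 9 that fell were the chaperones and folding factors SDF2L1, CRELD2, HYOU1, PDIA4, CALR, HSPA5 and HSP90B1, the secreted ER factor MANF, and PHGDH, an enzyme of serine synthesis. SDF2L1 had 19.1 and 19.5 RPKM in controls and 8.35, 7.52 and 8.54 after knockdown, and fell by 1.22 ± 0.10 (limma adjusted p = 0.0005). HYOU1 had 28.7 and 28.1 against 15.05, 15.8 and 13.8 RPKM and fell by 0.92 ± 0.11. The 4 that rose were SLC7A11, the cystine transporter, by 0.80 ± 0.09, ASNS, asparagine synthetase, by 0.76, DNAJB9, an ER co-chaperone, by 0.72 and DDIT3, a stress transcription factor, by 0.58. The other 16 members, ATF4 and TRIB3 among them, did not pass. Of 13 NRF2 targets 2 rose and 5 fell, but 6 rose and none fell with quantile normalization, and 5 rose and 3 fell with limma-voom, so the balance of this list depended on the setting. HMOX1, heme oxygenase, went from 2.96 and 2.33 RPKM to 4.95, 5.50 and 4.66 and rose by 0.87 ± 0.13, whereas PGD, TKT and TALDO1, enzymes of the pentose phosphate pathway, and GSR, glutathione reductase, were among those that fell. None of the 5 falls passed without control replicate 1. Of 28 hypoxia and glycolysis genes 8 fell (28.6%) and 1 rose, no larger a share than of all genes, with 2 fallen and 2 risen under quantile normalization and 6 and 5 with limma-voom. Among them were the glycolytic enzyme TPI1, which fell by 0.70 ± 0.11 but had -0.16 with quantile normalization (adjusted p = 0.084), and TXNIP, a thioredoxin inhibitor, which rose by 0.62 ± 0.17 (adjusted p = 0.025, and 0.082 and 0.113 without control replicates 1 and 2).

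Genes that rose at a level well above the filter were fewer. IL1B, the cytokine interleukin 1 beta, stood at 1.26 RPKM in both controls and at 5.21, 6.73 and 5.12 after knockdown, and rose by 1.96 ± 0.13 (SE on the log2 scale, 3 against 2 libraries, limma adjusted p = 0.0002). CSF2, another cytokine gene, had 1.22 and 1.10 against 2.39, 2.43 and 2.21 RPKM and rose by 0.88 ± 0.09. These 2 stood clear of their controls, but the list of NF-kB and cytokine genes did not move one way: of 16 tested members 4 were called higher and 3 fell, or 3 and 3 of the 15 with both group means over the filter, and IL11, a cytokine induced by TGF-beta, fell by 0.77 ± 0.15 (adjusted p = 0.060 without control replicate 1). Of 26 immediate early and serum response genes 3 rose and 3 fell, but 8 rose and none fell with quantile normalization, and 6 rose and 3 fell with limma-voom. DUSP6 and DUSP5, phosphatases that limit ERK signalling, rose by 1.00 ± 0.09 and 0.60 ± 0.08, and SRF, a transcription factor of the serum response, fell by 0.59 ± 0.11 (-0.28 with quantile normalization, adjusted p = 0.068, and an adjusted p of 0.059 without control replicate 1). EGR1 rose by 0.77 ± 0.24, but its adjusted p was 0.145 and 0.111 without control replicates 1 and 2.

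Of 24 p53 targets 6 rose (25.0%, against 12.6% of all genes) and 1 fell, with a median of 0.21 (0.33 relative to all genes). RRM2B, a subunit of ribonucleotide reductase induced by p53, had 1.18 and 1.39 RPKM in controls and 2.49, 1.99 and 2.24 after knockdown, and rose by 0.70 ± 0.12 (limma adjusted p = 0.0042). RPS27L rose by 0.67 ± 0.11 and MDM2, the ubiquitin ligase of p53, by 0.66 ± 0.18, the latter with an adjusted p of 0.144 without control replicate 1 and 0.057 without control replicate 2. Without control replicate 1, 2 of the list rose, and with limma-voom 11. Of 15 tested interferon-stimulated genes 7 were called higher and 2 lower, but 2 of these 7, SAMD9 and IFI44L, passed the filter only through the knockdown libraries. Of the 13 with both group means over it 5 rose and 2 fell, with a median of 0.21 (0.35 relative to all such genes), beside 8.73% and 32.2% of all genes over that level. SAMD9L, an antiviral factor, had 0.79 and 0.85 against 1.58, 1.49 and 1.70 RPKM and rose by 0.78 ± 0.09, and IFI44 rose by 0.71. The classical member ISG15 fell by 0.44. Without control replicate 1, 4 of the list rose.

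Among 12 abundant nuclear and other long non-coding RNAs with both group means over the filter 2 rose and none fell. NEAT1, the scaffold of paraspeckles, stood at 18.7 and 18.8 RPKM in controls and at 36.6, 31.7 and 43.5 after knockdown, and rose by 0.97 ± 0.15 (limma adjusted p = 0.0031). LUCAT1, another RNA targeted in the series, stood at 0.45 and 0.48 RPKM in controls and at 0.67, 0.83 and 0.77 after knockdown, and since it passed the filter only through the knockdown libraries these values are a description. MIR31HG rose by 0.32 ± 0.11, with an adjusted p of 0.049 (0.050 to 0.223 under 7 other settings, without control replicate 1 the highest). Of 13 snoRNA host genes, whose introns release small nucleolar RNAs, 6 rose (46.2%, against 12.6% of all genes) and none fell, with a median of 0.36 (0.47 relative to all genes). GAS5 went from 33.0 and 39.9 RPKM to 79.3, 67.6 and 71.6 and rose by 1.00 ± 0.13. SNHG1 had 14.5 and 17.7 against 22.5, 31.1 and 30.4 RPKM and rose by 0.78 ± 0.17 (adjusted p = 0.082 without control replicate 1). Of these 6, 1 still rose without control replicate 1 and 3 without control replicate 2, without knockdown replicate 2 or without knockdown replicate 3.

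Ribosomal protein genes as a list gave no direction that held under scaling: of 65 tested members 3 rose and 8 fell (median 0.03), but 34 rose and none fell with quantile normalization, and 23 rose and 3 fell with limma-voom. RPL37 rose by 0.72 ± 0.11 (limma adjusted p = 0.0037), from 22.4 and 26.1 RPKM to 41.4, 40.7 and 37.8. VTRNA1-3, a vault RNA gene and one of the risen genes with the highest mean RPKM, went from 17.1 and 18.7 RPKM to 47.0, 56.4 and 42.3 and rose by 1.42 ± 0.14. Its level was unsteady in synchronised cells, from 0 to 53.5 RPKM in controls and from 0.75 to 14.9 after MIAT knockdown.

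Splicing factors, a list that includes proteins reported to bind MIAT, had 9 of 25 tested members fallen and none risen, with a median of -0.22 that was -0.10 relative to all genes. PTBP1, a splicing repressor, had 24.3 and 24.6 RPKM in controls and 16.2, 18.3 and 16.2 after knockdown, and fell by 0.53 ± 0.11 (limma adjusted p = 0.0078, 0.053 without control replicate 1, and -0.16 with an adjusted p of 0.240 under quantile normalization). CELF1, a CUG-binding splicing factor, fell by 0.36. With either control left out 1 member fell, with quantile normalization none fell and 3 rose, and with limma-voom 4 fell and 7 rose, so the direction of this list depended on the setting. Among 12 genes of RNase H, oligonucleotide sensing and RNA decay 3 fell and 2 rose: RNASEH2C, a subunit of RNase H2, went from 11.9 and 11.8 RPKM to 4.39, 4.65 and 4.63 and fell by 1.33 ± 0.09, RNASEH1, the enzyme through which GapmeRs act, fell by 0.55 ± 0.09, and DDX58, the RNA sensor RIG-I, rose by 0.36 ± 0.08 (adjusted p = 0.127 without control replicate 1). Apoptosis regulators had 2 of 16 fallen (12.5%) and 1 called higher, and lysosome and autophagy genes 4 of 18 fallen (22.2%) and 1 risen, both under the share of all genes that fell. With quantile normalization 3 rose and none fell in each list, and with limma-voom 4 rose and 1 fell in the first and 2 rose and 1 fell in the second. MAP1LC3B, the autophagosome marker LC3B, was the autophagy gene that rose, by 0.67 ± 0.14 (adjusted p = 0.071 without control replicate 1).

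**Figure D3:**
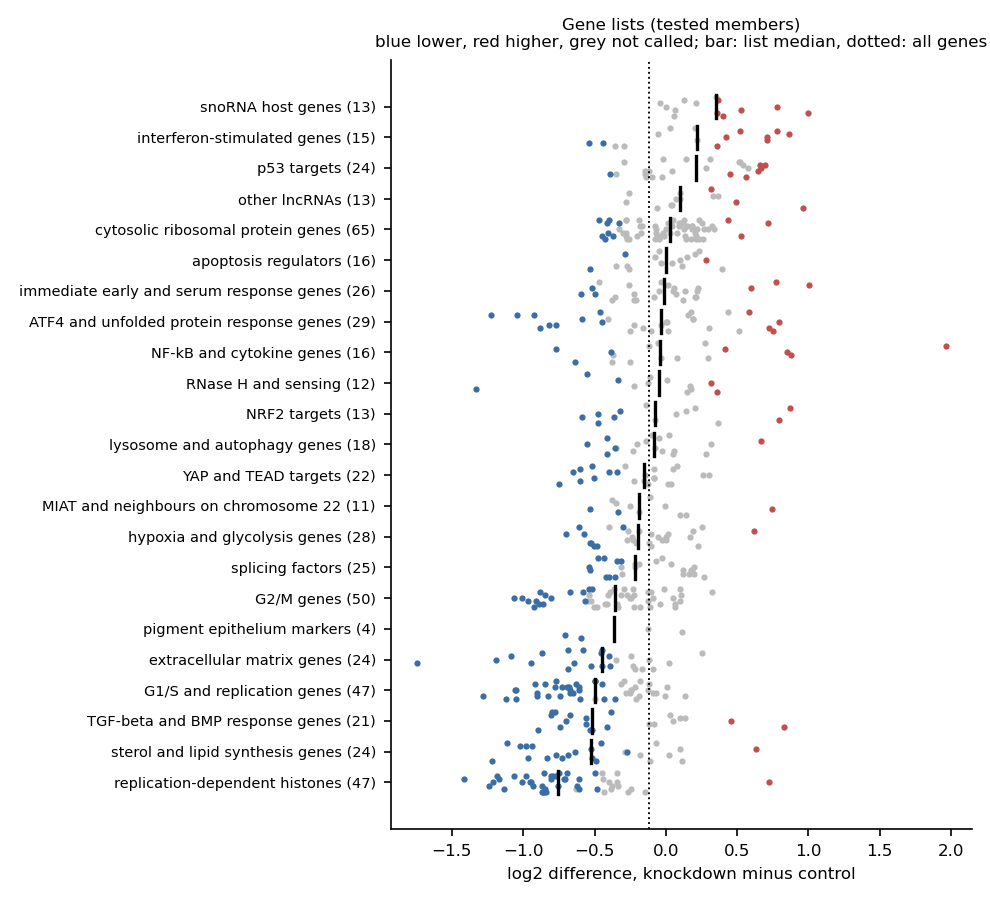
Log2 difference of knockdown minus control (horizontal axis) of each tested member of 23 gene lists (rows, with the number tested), in blue where called lower, red where called higher and grey where not called; bars are list medians and the dotted line is the median of all genes, -0.12. In the fit shown, on the deposited scaling, histone genes have the lowest list median, -0.76, and snoRNA host genes the highest, 0.36.

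**Figure D4:**
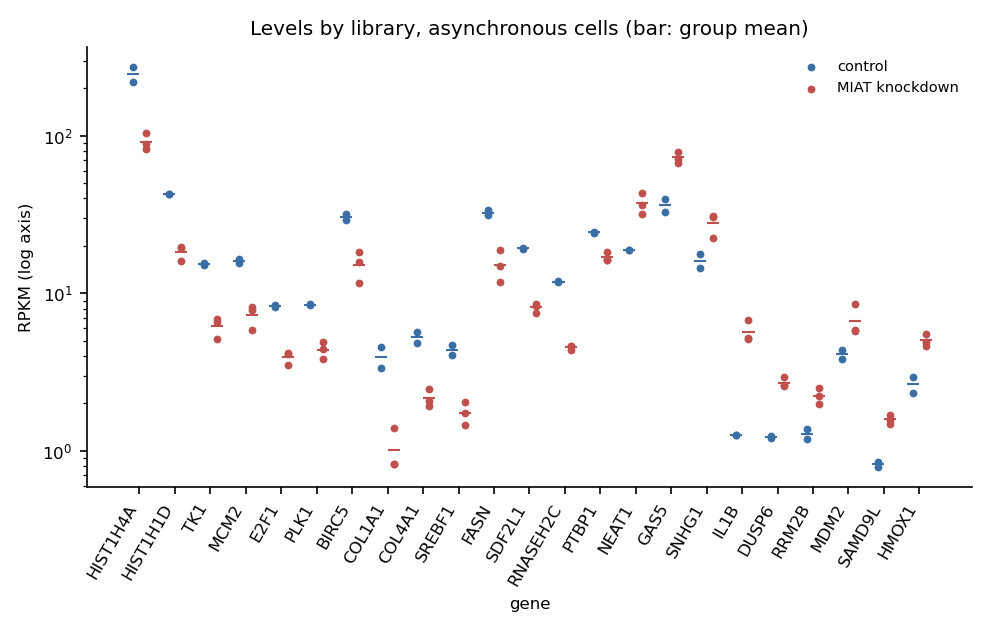
RPKM (vertical axis, log scale) of 23 named genes in the 2 control (blue) and 3 MIAT knockdown (red) libraries, with bars at the group means. The genes were picked from those called, and the groups do not overlap for 67.7% of all genes tested. Values run from HIST1H4A (219 and 273 against 83.0 to 104) to HMOX1 (2.33 and 2.96 against 4.66 to 5.50).

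The largest rises were in genes nearly silent in controls, most of them pseudogenes and non-coding RNAs, which passed the filter mostly through the knockdown libraries and are given as a description. AP000769.1 stood at 0.12 and 0.16 RPKM in controls (54 and 46 reads) and at 24.0, 20.2 and 17.01 after knockdown (13522, 9122 and 10461 reads), a log2 difference of 5.72. GP5, a platelet glycoprotein gene, went from 0.10 and 0.11 RPKM to 5.06, 5.80 and 4.59. LINC00565 was the strongest of them in controls, at 2.70 and 2.18 RPKM against 28.4, 21.1 and 15.2, and rose by 2.98 ± 0.25 (limma adjusted p = 0.0004). AL732292.1 was listed at 0 in both controls and at 3.24, 5.05 and 4.95 RPKM after knockdown. Of 182 tested lincRNAs 91 rose and 19 fell, and of the 117 with both means at or above 0.5 RPKM 39 rose and 13 fell, against 572 and 2475 of 7410 coding genes above the same level. These lincRNAs and coding genes also differed in median length (3148 and 28206.5 bp) and median control level (1.29 and 2.03 RPKM). Of all tested genes, 21.6% under 3000 bp rose and 9.20% from 30000 to 1e+05 bp. Type was not separated from length or level. The largest falls were, besides COL1A1, histone genes and TK1, in pseudogenes such as UBBP1 (by 1.86) and HMGB1P37 (by 1.69), whose reads may come from their parent genes, and in TEDC1 (by 1.35), SEMA6B (by 1.31), the kinase gene PKMYT1 (by 1.24), the cohesion factor gene CHTF18 (by 1.23) and MFSD3 (by 1.23).

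A set of 255 tested genes with a control mean under 0.3 RPKM shows how wide this rise was. By their choice they are weak in controls, so the rise against those controls is a description only. Their summed level was 37.7 and 34.4 RPKM in the controls and 278, 333 and 268 after MIAT knockdown. The same genes, as far as matched, were also higher in the other knockdowns: 60.7 to 113 RPKM summed over 171 genes in LINC00704 knockdown libraries and 104 to 259 over 197 genes in LUCAT1 knockdown libraries, both against those controls. In synchronised cells, whose libraries took no part in the choice, the 220 matched genes summed to 32.9 to 47.8 RPKM in the 8 controls and to 83.1 to 321 in the 8 MIAT knockdown libraries, with no overlap. What these genes have to do with MIAT, as distinct from GapmeR transfection, was not tested.

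**Figure D5:**
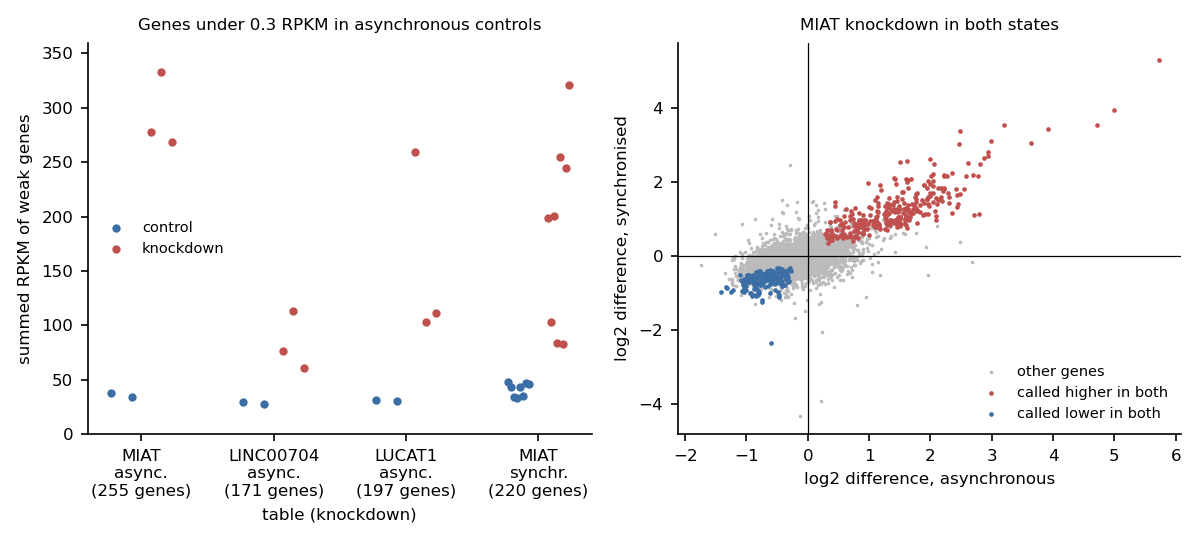
Left, summed RPKM of the genes under 0.3 RPKM in asynchronous controls, 1 point per library, in the 4 tables (number of matched genes in brackets); right, log2 difference of each of 8402 genes in asynchronous (horizontal) and synchronised (vertical) cells, with the genes called in the same direction in both in colour. In the left panel every knockdown library lies above the controls of its table, and in the right panel 293 genes are called higher and 176 lower in both.

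MIAT knockdown in synchronised cells used other libraries throughout, so that its calls can be set against these. There 7.63% of 9528 genes were called, 461 higher and 266 lower (4.84% and 2.79%; limma, mean over S0 to S6). That fit takes all libraries as independent, but the summed level of the 220 weak genes followed the column number of the knockdown libraries. At S0, S2 and S4 it was 199, 201 and 255 RPKM in columns numbered 2 and 103, 83.5 and 83.1 in those numbered 3. Whether this makes the p-values too small was not tested. Of the 8402 genes tested in both, 293 rose in both states, which is 29.7% of the asynchronous rises, where 4.33% of all genes tested in both rose in synchronised cells, and 80.5% of the synchronised rises, where 11.7% rose in asynchronous cells. Another 176 fell in both, 6.51% of the asynchronous falls, where 2.79% of genes fell in synchronised cells, and 75.2% of the synchronised falls, where 32.2% fell in asynchronous cells. The reverse direction was seen for 2 of the asynchronous rises and 7 of the falls. Many of the shared rises were weak genes: 49 of the 293, and 159 of the 176 shared falls, had a control mean of at least 1 RPKM. Genes that passed the filter mostly through the knockdown libraries count among the rises of both states, so the shares of rises are a description. Whether an effect differed between the states was not tested, since the tables were scaled separately. The number of calls in synchronised cells fell to 359 without 1 of the S0 knockdown libraries and ran up to 984 without the other.

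GAS5 rose in both states, by 1.00 in asynchronous and 1.32 in synchronised cells (limma adjusted p = 0.0078), and LINC00565 by 2.98 and 3.10. Of the histones 12 of 45 tested members fell in synchronised cells, among them HIST1H4A by 0.99 and HIST2H2AB, outside the list, by 0.98. SDF2L1 and RNASEH2C fell there as well, by 0.92 and 0.84. Against 2.79% of all genes called lower there, 2 of 46 replication genes fell (4.35%), 4 of 49 G2 and mitosis genes (8.16%), 1 of 24 sterol genes (4.17%) and 2 of 24 matrix genes (8.33%). The medians of these 4 lists in synchronised cells were -0.36, -0.42, -0.08 and -0.23, beside -0.03 over all genes tested there. In the TGF-beta and BMP list 1 of 23 tested members rose there and none fell, with a median of -0.01. The ATF4 and unfolded protein response list had 4 higher and 4 lower of 30. Of 13 snoRNA host genes 3 rose, beside 4.84% of all genes, with a median of 0.51. None of 29 p53 targets or 13 interferon-stimulated genes rose. IL1B was at -0.51 in synchronised cells and did not pass (adjusted p = 0.27), COL4A1 at -0.00 (0.999) and SREBF1 at -0.10 (0.78).

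The asynchronous knockdowns of LINC00704 and LUCAT1 share both controls with the MIAT knockdown, so their values are set side by side only. LINC00704 knockdown had 5 genes called higher of 8975 (0.0557%) and none lower (1115 at an unadjusted p under 0.05; 5 higher and 1 lower with limma-voom), and LUCAT1 knockdown 20 higher of 9550 (0.209%) and none lower (2100 at an unadjusted p under 0.05; 65 and 3 with limma-voom). These counts hang on single libraries: the first became 43 without LINC00704 knockdown replicate 3 and 0 without any of the other libraries, and the second became 4563 without LUCAT1 knockdown replicate 1 and 0 without any of the others. List medians follow in the order LINC00704, LUCAT1 and MIAT knockdown, beside -0.07, -0.102 and -0.12 over all genes. They were -0.57, -1.13 and -0.45 for matrix genes and -0.49, -1.005 and -0.52 for TGF-beta and BMP genes. Histones had -0.43, -1.26 and -0.76, and p53 targets 0.301, 0.84 and 0.21. Replication genes had -0.33, -0.22 and -0.499, sterol genes -0.25, -0.49 and -0.52, and snoRNA host genes -0.02, -0.12 and 0.36. Group means of several members lay on the same side of the controls in all 3 knockdowns. The mean of TK1 was 10.7 RPKM in LINC00704 knockdown and 6.48 in LUCAT1 knockdown, beside 6.21 in MIAT knockdown and 15.3 in the controls. For COL4A1 these means were 2.47, 1.96, 2.17 and 5.26 RPKM. For HIST1H4A they were 153, 75.6, 91.9 and 246. IL1B stood at 2.24, 2.55, 5.69 and 1.26 RPKM, and its 3 MIAT knockdown libraries, from 5.12 upward, lay above the 4.09 RPKM of the highest LUCAT1 knockdown library and the 2.65 of the highest LINC00704 one. GAS5 stood at 54.8, 40.85, 72.8 and 36.4 RPKM, and its lowest MIAT knockdown library, at 67.6, lay above the other knockdown libraries, which reached 64.5 and 59.6. None of these differences between knockdowns was tested, the 3 tables were scaled separately, and the control means are those of the MIAT table.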

How the data were processed

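RNA-seq of asynchronous cells was analysed in 2 control and 3 MIAT knockdown libraries. The authors deposited RPKM per gene and library; the table's gene length matches the RefSeq gene span (median ratio 1.00 over 13555 matched genes). The log2 fold change, p-value and FDR columns of the table were not used. STAR 2.5.3, featureCounts 1.6.1, edgeR and HOMER 4.10.3 on hg38 are named in the submitters' processing notes, with no role; no annotation is named there. The labels call the RNA nascent and also name strand-specific RNA-seq, and which description applies is not settled. They do not say whether counting used strand, so reads of a gene and its antisense partner may be mixed.

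RPKM times length gave whole multiples of 1 read for 100% of the values checked (up to 200 reads, tolerance 0.05), so depth was recovered: 42.1 and 27.3 M reads in controls and 47.2, 37.5 and 50.5 after knockdown. Genes with at least 0.5 RPKM in 2 libraries were fitted with limma 3.58.1 (R 4.3.3) on log2(RPKM + 0.25), with a mean trend, and called under a Benjamini-Hochberg adjusted p of 0.05; tests ran within a table. The fit was tested on simulated data with few changed genes, as many rises as falls and no shift over all genes. That simulation therefore does not cover a change as wide as the one seen here. Figures used Python 3.11.15 and matplotlib 3.10.9. Members and gene lists were chosen with earlier results of these data known. Named genes were MIAT and neighbours, the 15 largest non-overlapping called differences each way with a higher mean of at least 1 RPKM, the 5 most abundant called genes each way, and up to 4 called members per list (2 where none was called); further called members of the lists were named after their values were seen. Of 25 lists, mitochondrially encoded genes and markers of other cell types had no tested member. Some members counted in the lists are not reported here by name.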

Additional observations from a re-analysis of the deposited data

How the results depend on the processing

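Against 4016 calls after MIAT knockdown in asynchronous cells, leaving out 1 library at a time gave from 1571 (without control replicate 1) to 4632 calls (without knockdown replicate 1), and 2479 without control replicate 2. Of the 4016 genes, 1550 and 2394 were still called the same way without control replicates 1 and 2. Rises ran from 524 to 1280 and falls from 1047 to 3352 on the same settings. Rises numbered 2604 without the filter, 764 with at least 1 RPKM in 2 libraries and 2213 with limma-voom, and falls numbered 1800 with quantile normalization. The other settings tried (pseudocounts of 1 and 0.1, median scaling, no mean trend) kept the totals within 1.5 times. HIST1H1C (0.038) and HIST2H2AC (0.107) changed sign with quantile normalization, the only named genes to do so under any alternative; 20 others lost their call there, 35 without control replicate 1 and 23 without control replicate 2. The cause was not tested, beyond the smaller number of libraries or genes in a setting. The fall of MIAT kept its call in all settings that gave a value.

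With the replicate number as a block, 3368 genes were called (979 higher and 2389 lower) and MIAT had a log2 difference of -0.80; 13 named genes lost their call. Knockdown replicate 3, with no control of its number, adds nothing to that fit. Libraries of number 1 deviated together (correlation 0.285 over 9200 genes) and those of number 2 did not (-0.108), and the labels do not say that a number marks a shared batch, so the numbers were not taken as pairs. In synchronised cells the knockdown columns of S0, S2 and S4 are numbered 2 and 3, whereas the titles run 1 and 2, and those of S6 match their titles. A replicate block on the column numbers gave 1492 calls (856 rises and 636 falls). Libraries of the same number correlated at -0.479, -0.294 and -0.661 at S0, S2 and S4 and at 0.122 at S6, so these numbers were not taken as pairs either.

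In synchronised cells the 727 calls became 1577 without the filter (1204 rises) and 469 with at least 1 RPKM in 2 libraries (253 rises). Leaving out 1 library gave 359 to 984 calls, 280 to 613 rises and 79 to 471 falls. The libraries that moved the total by over 1.5 times were control S0 replicate 2, both S2 controls, S4 and S6 control replicate 1, and the first knockdown library of S0 and of S2. The 469 genes shared between the states became 352 to 465 without 1 asynchronous library. LINC00704 and LUCAT1 counts ran from 0 to 43 and from 0 to 4563 on leaving out 1 library, and LUCAT1 had 68 calls with limma-voom. These last alternatives, and the list counts without 1 control, were chosen after seeing the data. Depth limits MIAT, with 42 to 288 reads a library, and also the genes nearly silent in controls.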
